A study of Mus musculus with 45 samples.

Results

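Fusion transcripts are RNAs whose exons belong to more than 1 annotated gene. The long-read transcript table of this mouse reprogramming study listed 276608 transcripts, and 1530 of them (0.553%) carried the structural category fusion in the authors' classification of all transcripts before filtering. That classification held 13159 fusions among 1883390 transcripts, so 11.6% of the fusions and 14.7% of the other transcripts were in the transcript table. The 1530 fusions came from 863 sets of parent genes, of which 601 gave 1 transcript each. Most had 2 parent genes (1502 transcripts), and 28 had 3.

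Transcription normally ends past the poly(A) site, where the nascent RNA is cut and polyadenylated by a large protein complex and the polymerase is released. When the polymerase passes this site it can enter the next gene on the same strand, and splicing can then join exons of both genes into 1 read-through RNA. Such an RNA may place an upstream promoter and first exon before a downstream coding sequence, may encode a protein from both genes, or may carry an early stop codon and be degraded by nonsense-mediated decay (NMD), the pathway that removes RNAs with a premature stop.

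The cells were followed from neural progenitors towards induced pluripotent stem cells. All lines came from embryonic stem cells of the mouse line R1 or of O4G, which is R1 with a green fluorescent protein gene driven by the Oct4 promoter. The progenitors were derived from O4G and were either wild type or stably transfected with reprogramming factors inducible by doxycycline, with the genotype labels OKMS-Luciferase-AS or OKS-Luciferase-AS, called OKMS and OKS here; the letters are the usual initials of Oct4, Klf4, Myc and Sox2. The role of the luciferase element was not stated in the labels. Uninduced progenitors grew in progenitor medium with EGF, FGF-2 and heparin. Induction used doxycycline in a serum medium with LIF, here FBS-LIF with doxycycline, and ran up to day 20; cells stayed in it or were switched, at day 6 for the R9 libraries (the day was not stated for R10), to 2i-LIF, in which LIF is combined with inhibitors of the kinases GSK3 and MEK. Wild-type progenitors were also kept in FBS-LIF with doxycycline for 2 days. The wild-type stem cell libraries (O4G, R1 and a line labelled R1 clone 3) came from 2i-LIF, so cell state and medium cannot be told apart between stem cells and progenitors.

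Polyadenylated RNA was sequenced as direct cDNA on R9 flow cells (22 libraries), and total RNA as PCR cDNA on R10 flow cells (23 libraries). Comparisons between cell states were made within a chemistry. R9 libraries held 447990 to 1390424 reads on genes and R10 libraries 566599 to 4236442, with 274 to 716 fusion transcripts above 0 per library. The summed level of 6 pluripotency genes was 11001 to 13551 CPM (a library's reads scaled to a common total) in R10 stem cells and 14.9 to 28.0 CPM in R10 progenitors, and 7 neural progenitor genes summed to 4979 to 6534 CPM in those progenitors and 4.93 to 42.9 CPM in stem cells. Within R10, 10 libraries (the 6 stem cell libraries whose titles carry an n number and the 4 of day 18) had 14.6% to 20.3% of their TPM (abundance scaled to a common total per library) in transcripts classed as incomplete splice matches, and the other 13 had 7.84% to 12.9%. The remaining R1 stem cell library had no n number in its title. TPM also depended on transcript length, with more TPM per read for short transcripts (values below). Shares and ranks by TPM therefore weigh short transcripts more than reads would.

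The label of read-through was held against the annotation of GENCODE M21 (genome build GRCm38, the same assembly as the mm10 of the submitters' processing notes). All parents of 1524 transcripts were found on 1 chromosome and strand, and 1496 of these had 2 parents and are described in detail. For 247 of them the annotated spans of the parents overlapped. For the other 1249 the gap between the parents had a median of 7205 bases (quartiles 1557 and 22035), and in 1041 (83.3%) no other gene lay between them on that strand. An intron joined an exon of the upstream gene directly to an exon of the downstream gene in 972 transcripts (65.0%). Exon bases were counted for a parent only where the other parent did not share them. A single exon ran across both genes in 229 (15.3%). In 147 (9.83%) an exon with no base counted for either parent lay between the parts. In 123 (8.22%) no exon base was counted for at least 1 of the parents. Of the 972 direct splices, 321 used an annotated donor and an annotated acceptor, 147 only an annotated donor, 176 only an annotated acceptor, and 328 neither. The joining intron had a median of 18452 bases.

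Sequences are given for 8 joins as deposited. In 9130208D14Rik-Mrpl17 and Myh1-Myh8, 1 other gene lay between the parents on that strand. The joins belong to fusions described below whose join could be read within annotated exons. Left out were 4 of low level (Ighv1-46-Ighv1-44, Rnf122-Tti2, Zfp936-EU599041 and Xlr-1700013H16Rik). Transcript B of Gm13166-Zfp992, also low, is shown for its comparison with transcript A. Each holds the last 15 bases of the upstream gene in lower case and the first 15 bases of the downstream gene in capitals, read from GENCODE M21 transcripts (GRCm38) at the deposited splice positions.
Mt2-Mt1: gctcctgtgcctccgCAACCGCCTGCTGGG
9130208D14Rik-Mrpl17: acggctacatatgagCTCGGAGTTTCCCTT
Gm13166-Zfp992 transcript A: tcacaaaggatccagAGACCCTGGGAGAAG
Gm13166-Zfp992 transcript B: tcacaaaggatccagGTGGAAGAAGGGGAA
Acot2-Acot1: tgcacctcctggtggGAGAAGCCCCAGATC
Gm31048-Sparcl1: gggcctctcactgggACCCTGACTGGCTGA
Myh1-Myh8: ctcctccacacccagAACACGAGCCTCATC
Gm43038-Rfc3: gagataataatgaagGGCCTCCTCTCAGAA
The transcripts lie at chr8:94172848-94180327 (Mt2-Mt1, plus strand), chr7:105809662-105829552 (9130208D14Rik-Mrpl17, minus), chr4:146270325-146466215 and chr4:146270343-146466215 (Gm13166-Zfp992 A and B, plus), chr12:83992819-84017674 (Acot2-Acot1, plus), chr5:104092978-104239475 (Gm31048-Sparcl1, minus), chr11:67220902-67308634 (Myh1-Myh8, plus) and chr5:151642821-151668092 (Gm43038-Rfc3, minus). Both Gm13166-Zfp992 transcripts left Gm13166 at the same annotated donor and entered Zfp992 at different positions, across introns of 190529 and 176054 bases. Myh1-Myh8 and transcript A of Gm13166-Zfp992 used an annotated donor and an annotated acceptor. 9130208D14Rik-Mrpl17, Acot2-Acot1 and Gm31048-Sparcl1 used neither.

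Many fusions held only a short piece of one parent. The smaller contribution had a median of 178 exon bases (quartiles 65 and 439), and 494 transcripts (33.0%) held under 100 bases of one parent. Those 494 carried 68.8% of the summed mean TPM of the 1496. The short piece was upstream in 279 and downstream in 215. Some parents were related genes: of the 1249 with separate spans, 124 (9.93%) had parents sharing at least 10% of their 25-base words, and these carried 2.98% of the TPM. Between such near copies, reads and junctions can be placed on either gene, so their levels are uncertain. Runs of identical bases at the join were rare: of 686 direct splices where annotated exon sequence of at least 1 gene continued past the join, 3 had 8 or more identical bases and 311 had none.

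Coding status was close to that of the rest of the table, and NMD was predicted more often. A reading frame was predicted in 1261 fusions (82.4%) and in 83.6% of the 275078 other transcripts. NMD was predicted for 344 of the 1261 (27.3%) and for 17.9% of the other coding transcripts; these are shares over transcripts and were not tested. The predicted frame had a median of 242 codons in fusions and 271 in the others. Among 1240 coding fusions with 2 parents, the frame lay in exon bases of the downstream parent alone in 601, of the upstream parent alone in 362, of both in 270 and of neither in 7. Bases annotated in both parents were counted for neither here. Where the frame lay in the upstream parent alone, NMD was predicted for 243 (67.1%), against 57 (9.48%) for the downstream parent alone and 34 (12.6%) for both. Frame and NMD are both predictions from transcript structure, so this contrast is no measure of decay. In 116 transcripts the frame took at least 100 bases from each parent, and 10 of these had predicted NMD. A 5′ end in a CAGE peak, which marks measured transcription starts, was noted for 1172 fusions (76.6%) and 81.4% of the others. Among the 8 most abundant fusions described below, only Mt2-Mt1, Ppp1r18os-Tubb5 and Sephs2-Dctpp1 had such an end. Of those named for a fall in stem cells, only Gm44955-3930402G23Rik and Hotairm1-Gm27477 had it, while all those named for a rise did. Myh1-Myh8 and Gm43038-Rfc3 lacked it. All 1530 had canonical splice junctions only and no mark of reverse-transcriptase template switching, as did 98.0% and 100% of the other transcripts of this table, and the genomic sequence after their ends held at most 55% A.

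**Figure D1:**
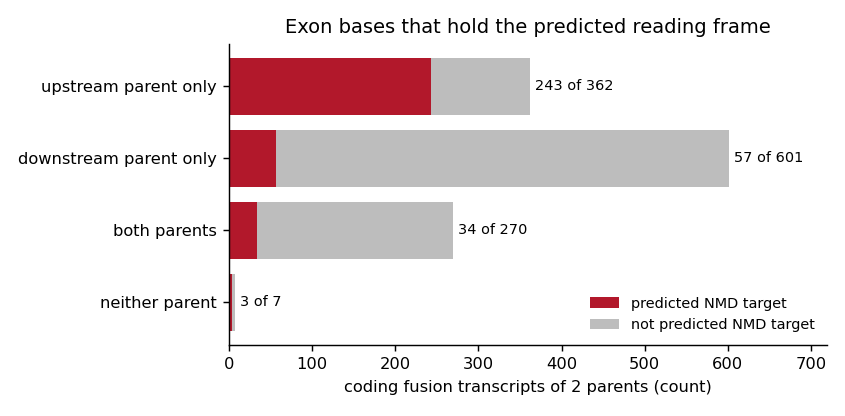
Counts of coding fusion transcripts of 2 parents (x axis) by the parent whose exon bases hold the predicted reading frame (y axis), split by predicted NMD. Bases annotated in both parents count for neither. NMD was predicted for 243 of 362 with the frame in the upstream parent alone and for 57 of 601 with the frame in the downstream parent alone.

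Most fusions were rare RNAs next to their parents. The mean over the 45 libraries had a median of 0.276 TPM, against 0.284 TPM for the other transcripts, and reached 1 TPM in 326 fusions (21.3%, against 20.97% of the others), 10 TPM in 92 and 100 TPM in 30. A fusion was above 0 in a median of 9 libraries, and 84 were above 0 in all 45. As a share of itself plus the other transcripts of both parents, the fusion had a median of 0.746% (quartiles 0.145% and 3.83%), with 837 of 1496 under 1%. No such share is given for other transcripts within their genes, so a low share is not shown to be particular to fusions. The share reached 10% in 238 and 50% in 92. The fusion stood above both parents in 105, above the upstream parent alone in 221, above the downstream parent alone in 364, and at or below both in 806. The median share was 0.750% with under 100 bases of one parent and 0.728% with at least 100 bases of each.

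**Figure D2:**
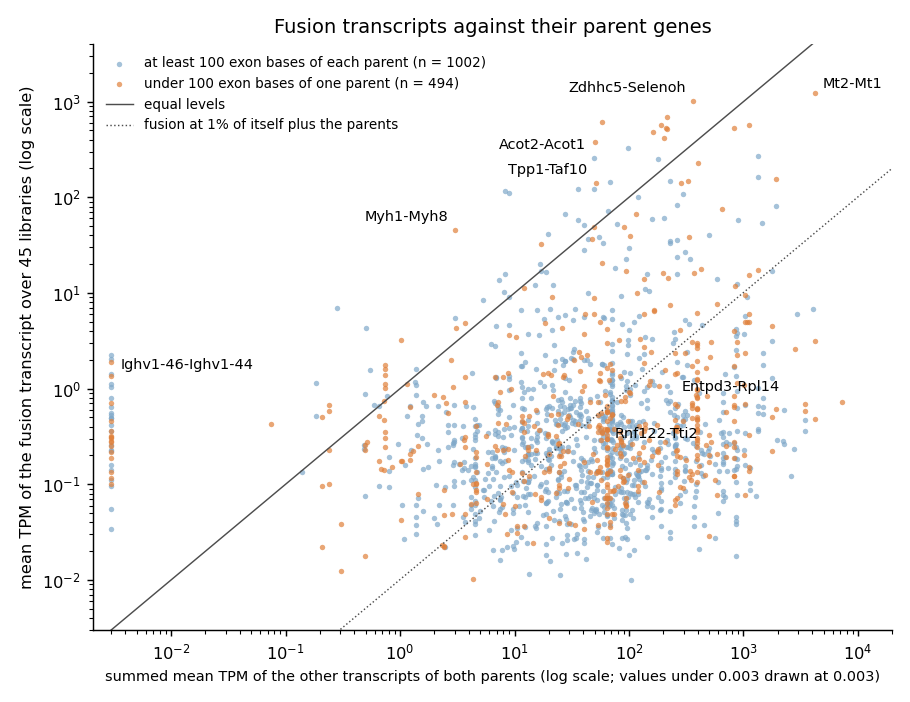
Mean TPM of each of 1496 fusion transcripts over 45 libraries (y axis) against the summed mean TPM of the other transcripts of its parents (x axis), both on log scales; colour gives the length of the smaller contribution. The lines mark equal levels and a fusion at 1% of itself plus its parents; 837 transcripts lie under the lower line, and Zdhhc5-Selenoh and Acot2-Acot1 lie above the upper one.

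The 8 most abundant fusions held 42.1% of the summed mean TPM, and in 7 of them the downstream gene gave most of the annotated exon bases. They are ranked by TPM and not by reads. Mt2-Mt1, of 498 bases, had a mean of 442 reads on its joined gene beside 1231 TPM. Ppp1r18os-Tubb5, of 2198 bases, had 1150 reads beside 684 TPM. Mt2-Mt1 (chr8:94172848-94180327, plus strand, mean 1231 TPM) joined 28 bases of Mt2 to 470 of Mt1, both genes of metallothioneins, small proteins that bind zinc and copper; no reading frame was predicted. Zdhhc5-Selenoh (chr2:84669221-84710890, minus strand, 1011 TPM) held 16 bases of the palmitoyltransferase gene Zdhhc5 and 741 of Selenoh, a selenoprotein gene. It was also without a predicted frame. For both fusions this is a prediction, and whether they encode a protein was not tested. Ppp1r18os-Tubb5 (684 TPM) held the frame of the beta-tubulin Tubb5 in 444 codons. Sephs2-Dctpp1 (607 TPM) held 51 bases of Sephs2, a selenophosphate synthetase, and 676 of Dctpp1, which degrades dCTP, with a frame of 170 codons in Dctpp1 bases. Slc29a1-Hsp90ab1 (570 TPM) carried 914 bases of the chaperone Hsp90ab1, and Gm9176-Rpl41 (529 TPM) 696 bases of the ribosomal protein gene Rpl41. 9130208D14Rik-Mrpl17 (527 TPM) carried 776 bases of the mitochondrial ribosomal protein gene Mrpl17. The upstream genes of these 7 gave 16 to 70 bases each. Other transcripts of Gm9176 and 9130208D14Rik were listed at 0 in all 45 libraries. Those of Ppp1r18os, Zdhhc5, Sephs2, Slc29a1 and Mt2 had means of 1.25, 4.08, 33.9, 61.4 and 3435 TPM. The fusions with Zdhhc5, Ppp1r18os, Sephs2 and 9130208D14Rik made up 71.6% to 91.3% of themselves plus their parents, and the others 22.6% to 39.1%. Whether the 7 are read-through RNAs was not tested.

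The remaining abundant entry did not meet the description of a read-through. Gm10243-Atp6v0e2 (chr6:48523474-48539877, 575 TPM) held 333 bases of the processed pseudogene Gm10243 and 0 exon bases of Atp6v0e2, a subunit of the vacuolar proton pump. It was listed at 0 TPM in several libraries where its joined gene had reads: in R9 OKMS at days 2, 4 and 6 the values were 0 TPM beside 120, 95 and 188 reads. Across the 84 fusions of at least 10 mean TPM with a joined gene of their own in the gene table, 189 of 3780 values were 0 TPM, and 56 of these stood beside at least 10 reads on the joined gene. They included values of Gm10243-Atp6v0e2, Acot2-Acot1, Gm26917-Gm42418 and a transcript of Slc29a1-Hsp90ab1, named after their values were seen. A 0 in the transcript table is therefore given as listed at 0, and the joined gene's reads are given for many of them.

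Over the 45 libraries, 182 fusions could be compared with each parent separately (fusion and both parents at 1 TPM or more on average). The fusion's profile was closer to the downstream parent in 124 and to the upstream parent in 58, with a median Pearson r across libraries of 0.405 to the downstream and 0.155 to the upstream parent. These are descriptions over libraries that share cell states and chemistry. With under 100 bases of the upstream gene, 44 of 53 were closer to the downstream parent. With under 100 bases of the downstream gene, 3 of 14 were. Where each parent gave at least 100 bases, 77 of 115 were.

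Cell-state dependence was tested with limma on log2(TPM + 1), with a Benjamini-Hochberg adjusted p under 0.05 over all transcripts tested and a log2 difference of at least 1 as the call. In R10 (7 stem cell against 4 progenitor libraries), 334 fusions passed the filter of 1 TPM and 146 (43.7%) were called, against 39.8% of the 58952 transcripts tested. Of these 85 were higher in stem cells (25.4%, background 23.4%) and 61 lower (18.3%, background 16.4%), and the median log2 difference was 0.17 in the fusions and 0.17 in all transcripts. A fusion listed at 0 throughout 1 group passed the filter through the other group alone. The R9 comparison (2 against 4 libraries) called 89 of 447 fusions (19.9%, background 13.4%), 69 higher (15.4%, background 9.75%) and 20 lower (4.47%, background 3.66%). This R9 count moved widely with the filter, the scaling and the libraries left out (last section). Of the 146 called in R10, 104 were tested in R9. There 88 had the same sign (84.6%, against 81.1% of the 17301 transcripts called in R10 and tested in R9), 48 were called in both with the same sign (46.2%, against 29.6%), and 0 were called in opposite directions. The 85 higher transcripts came from 62 sets of parents. Parents sharing sequence words were found in 13 of the 73 called higher, 3 of the 59 called lower and 23 of all 293 tested with separate spans. The split of higher against lower moved with scaling: under quantile normalization it was 65 against 70 in R10, and under median centring 19 against 16 in R9. With a minimum of 5 TPM, 38.3% of fusions were called in R10, below the share of all transcripts (last section). In R9 it was 23.4%, above that share. By edgeR on whole reads, 45.7% of joined genes and 49.3% of all genes were called in R10. The shares in R9 were 20.5% and 36.5%. With the R1 library without an n number as the only stem cell library, where the progenitors alone supply the spread, 90 of 573 were called (11.3% of all transcripts).

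Among the fusions with the largest rise in stem cells was 4931413I07Rik-Angptl4 (chr17:33774900-33783453, minus strand), which put 114 bases of a long noncoding RNA before Angptl4, the gene of a secreted inhibitor of lipoprotein lipase, and kept a frame of 370 codons. In R10 stem cells it had 12.0, 16.02 and 20.4 TPM (lowest, median and highest of 7), and it was listed at 0 in all 4 progenitor libraries. The groups did not overlap (log2 difference 4.10, SE 0.22, adjusted p = 9.13e-09). R9 gave 14.3 and 9.26 TPM in stem cells and 0 in the 4 progenitor libraries (adjusted p = 0.00097). The other transcripts of Angptl4 had 0.615 to 5.99 TPM in R10 stem cells, below the fusion in every one of those libraries. In the R9 stem cell libraries they had 15.4 TPM beside 14.3 TPM of the fusion in O4G, and were listed at 0 beside 9.26 TPM in R1.

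Snx12-Slc7a3 (chrX:101079204-101222453) joined the sorting nexin gene Snx12 to Slc7a3, a transporter of cationic amino acids, with a frame of 618 codons in Slc7a3 bases. It had 11.5, 17.2 and 24.7 TPM (lowest, median, highest) in R10 stem cells and 0 to 1.11 TPM in R10 progenitors (log2 difference 3.66, SE 0.29, adjusted p = 4.21e-07). Its level followed Slc7a3 (r = 0.871 over 45 libraries) more than Snx12 (r = -0.0823). The other Slc7a3 transcripts ranged from 35.0 to 93.5 TPM in R10 stem cells and from 0 to 1.68 TPM in progenitors, and those of Snx12 from 67.6 to 95.0 and from 69.5 to 82.6 TPM.

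Gstm4-Gstm1-Gstm2 (chr3:107981702-108044682) spanned 3 glutathione S-transferase genes, whose products conjugate glutathione to reactive compounds. R10 stem cells had 24.2, 40.4 and 70.7 TPM (lowest, median, highest) and progenitors 4.97, 4.11, 1.28 and 3.37 TPM (log2 difference 3.40, SE 0.31, adjusted p = 1.44e-06). The other Gstm1 transcripts were lower in stem cells, at 69.1 to 170 TPM in stem cells and 261 to 423 TPM in progenitors. Those of Gstm4 and Gstm2 were higher, as the fusion was, at 5.08 to 11.4 and 2.84 to 13.01 TPM in stem cells and at most 1.74 and 1.59 TPM in progenitors. The joined gene held 54 to 211 reads in R10 stem cells and 3 to 9 in progenitors. The genes are related copies, so the split of reads among them is uncertain.

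Zfp990-Gm13228 and Gm13166-Zfp992 transcript A, both from a cluster of zinc finger genes on chromosome 4, were listed at 0 in all R10 progenitors and had 3.92 to 35.9 TPM and 4.58 to 17.0 TPM in R10 stem cells (adjusted p = 1.51e-05 and 3.23e-06). The joined gene of Zfp990-Gm13228 held 0 reads in R10 progenitors and 17 to 58 in R10 stem cells. That of Gm13166-Zfp992, shared by all transcripts of this pair, held 4 to 14 and 77 to 185 reads. In R9 Zfp990-Gm13228 was listed at 0 in O4G, beside 13 reads on its joined gene, and had 9.46 TPM in R1, beside 9 reads. As it was also listed at 0 in the R9 progenitors, those groups overlapped. The parent had the same pattern: the other Zfp992 transcripts had 44.7 to 168 TPM in R10 stem cells and were listed at 0 in the 4 progenitor libraries.

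Tpp1-Taf10 (chr7:105742894-105750832, minus strand) set 39 bases of the lysosomal peptidase gene Tpp1 before Taf10, a subunit of the transcription factor TFIID, with a frame of 218 codons in Taf10 bases and a gap of 449 bases between the genes. In R10 it had 4.00 to 34.4 TPM in stem cells and 0.922 to 2.44 TPM in progenitors (log2 difference 3.09, SE 0.46, adjusted p = 0.000113). The joined gene held 6 to 74 reads in R10 stem cells and 1 to 3 in R10 progenitors. In R9 the level was far higher, at 506 and 497 TPM in stem cells and 374, 205, 214 and 286 TPM in progenitors, and the difference was not called (0.94, SE 0.28, adjusted p = 0.12). The other Taf10 transcripts were also higher in R9. Their means were 74.7 TPM in R9 and 5.74 TPM in R10 stem cells, and 42.6 and 0.884 TPM in progenitors. Those of Tpp1 were 9.99 and 18.6 TPM in stem cells, and 33.4 and 27.3 TPM in progenitors. The cause was not tested. Of 107 fusions with a mean of at least 10 TPM in progenitors of either chemistry, 5 were more than 10 times higher in R9, Tpp1-Taf10 among them (269.7 TPM on average in R9 progenitors and 1.57 TPM in R10 progenitors), with Mrpl30-Gm15457, Myl6b-Myl6, Gm49329-Gm49330-Gm49328 and another Slc29a1-Hsp90ab1 transcript. Another 2, Rpl5-Gm22270 and Gm26917-Gm42418, were more than 10 times higher in R10. These fusions were named after their values were seen.

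The largest falls in stem cells included some of the most abundant progenitor fusions. Dgki-Ptn (chr6:36715726-36862500, minus strand) held 55 bases of the diacylglycerol kinase gene Dgki and 817 bases of Ptn, which encodes the growth factor pleiotrophin, with a frame of 162 codons. R10 progenitors had 573, 419, 653 and 630 TPM, and in R10 stem cells it was listed at 0 in 5 of 7 libraries with 3.49 TPM as the highest. The log2 difference was -8.73 (SE 0.39, adjusted p = 1.63e-09) in R10 and -8.95 (SE 0.32, adjusted p = 0.00076) in R9. Relative to its parents it was not called (0.34, SE 0.38, adjusted p = 0.511). The other Ptn transcripts had 671 to 1030 TPM in R10 progenitors and at most 2.78 TPM in R10 stem cells. The joined gene held 328 to 1083 reads in R10 progenitors and at most 5 in stem cells.

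Acot2-Acot1 (chr12:83992819-84017674, plus strand) joined 152 bases of Acot2 to 520 of Acot1, which encode mitochondrial and cytosolic acyl-CoA thioesterases, enzymes that free fatty acids from coenzyme A. Both genes gave bases to its frame of 119 codons, 135 from Acot2 and 225 from Acot1. It was listed at 0 in all 9 stem cell libraries. The R10 progenitors split by line, with 1790 TPM in OKMS, 1708 TPM in OKS and 177 and 186 TPM in wild type, and the joined gene held 1300, 936, 187 and 226 reads there. R9 progenitors gave 310 and 516 TPM in wild type, 498 in OKMS and 715 in OKS, with no such split. The log2 difference was -9.14 (SE 0.59, adjusted p = 4.81e-08) in R10. The parents share 32.6% of their 25-base words, so the level is uncertain, and the joined gene kept 6 to 26 reads in R10 stem cells.

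Pdxp-Lgals1, which held 30 bases of Pdxp and 535 of galectin-1 (Lgals1), had 187, 151, 126 and 216 TPM in R10 progenitors and 0.787 to 10.2 TPM in stem cells (adjusted p = 1.01e-06). Hotairm1-Gm27477, in which a single exon ran from Hotairm1, a noncoding RNA of the HoxA cluster, across a gap of 5 bases into Gm27477, had 30.3 to 48.7 TPM and 0.412 to 2.64 TPM (adjusted p = 1.54e-07). Gm44955-3930402G23Rik, a join of 2 long noncoding RNA genes, had 16.5 to 21.8 TPM in R10 progenitors and was listed at 0 in all stem cell libraries (adjusted p = 2.65e-09), with 0 reads on the joined gene there. Gm31048-Sparcl1, with the matrix glycoprotein gene Sparcl1 downstream across a gap of 125579 bases, had 10.1, 12.1, 8.34 and 7.32 TPM and was listed at 0 in stem cells (adjusted p = 4.13e-08), again with 0 reads on the joined gene. In these 4 cases the other transcripts of the parent with most bases were also lower in every R10 stem cell library than in any R10 progenitor library. Gm27477 is annotated as a miscellaneous RNA, and its other transcripts were listed at 0 in all 45 libraries.

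**Figure D3:**
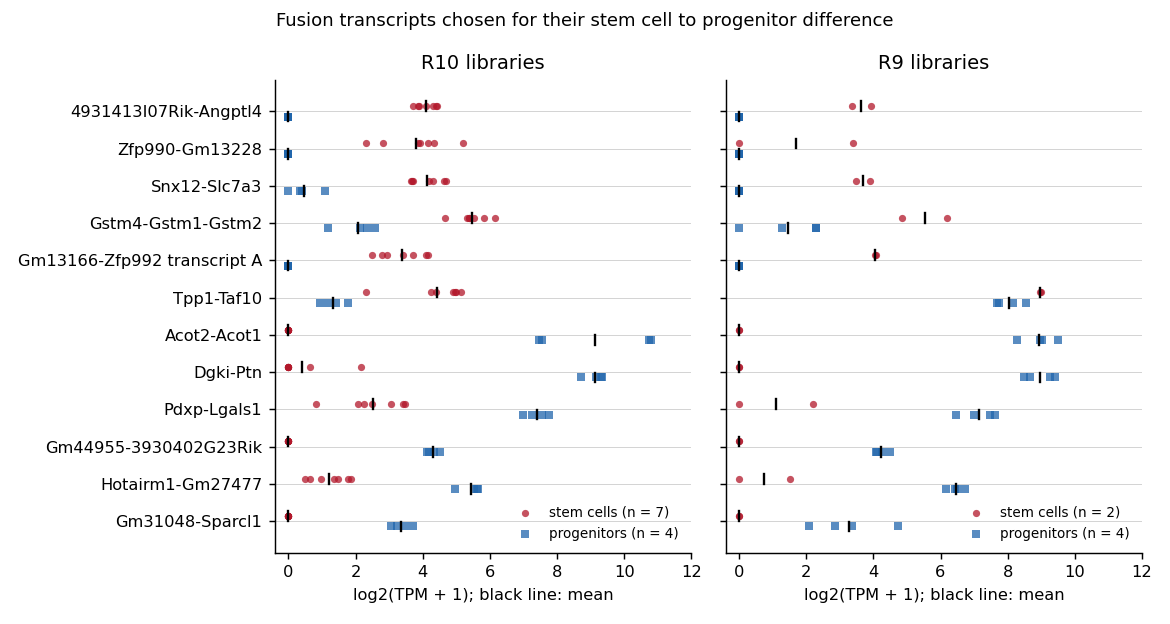
Level of the 12 fusion transcripts of largest difference, as log2(TPM + 1) on the x axis, in stem cell libraries (red circles) and progenitor libraries (blue squares) of each chemistry; black lines are means. They were chosen for R10 groups that do not overlap. Tpp1-Taf10 stands much higher in R9 than in R10, and Acot2-Acot1 splits in R10 progenitors.

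Summed over all 1530, fusions made up 1.36% ± 0.107 of TPM in R10 stem cells (SD, n = 7, range 1.25% to 1.58%) and 1.64% ± 0.0101 in R10 progenitors (SD, n = 4). The difference was -0.289 percentage points (exact permutation test, two-sided, p = 0.00303, the smallest value 330 splits can give). The R1 library without an n number had 1.58%, so that alone it differed from the progenitors by -0.0623, and the 6 others had 1.25% to 1.37%. Those 6 libraries were also among the 10 with the larger share of incomplete splice matches given above, and the part of that share in the difference was not tested. In R9, stem cells had 1.61% and progenitors 1.54%, with a difference of 0.0675 in the other direction (exact permutation test, two-sided, p = 0.4; 15 splits allow 0.0667 at the least).

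The direction in R9 turned in 1 of 2 other sums, both chosen after the values were seen. Fusions with at least 100 bases of each parent made up 0.393% to 0.409% of TPM in R9 stem cells and 0.435% to 0.522% in R9 progenitors, a difference of -0.0680 percentage points (exact permutation test, two-sided, p = 0.133). In R10 the same sum was 0.357% to 0.396% in stem cells and 0.469% to 0.615% in progenitors (-0.174, exact permutation test, p = 0.00303). Those groups did not overlap in either chemistry. With Mt2-Mt1 taken out of the sum of all fusions, R10 stem cells had 1.196% to 1.504% and progenitors 1.466% to 1.512% (-0.211, exact permutation test, p = 0.00909), so the groups overlapped. In R9 that sum kept its direction (0.0559, exact permutation test, two-sided, p = 0.533).

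**Figure D4:**
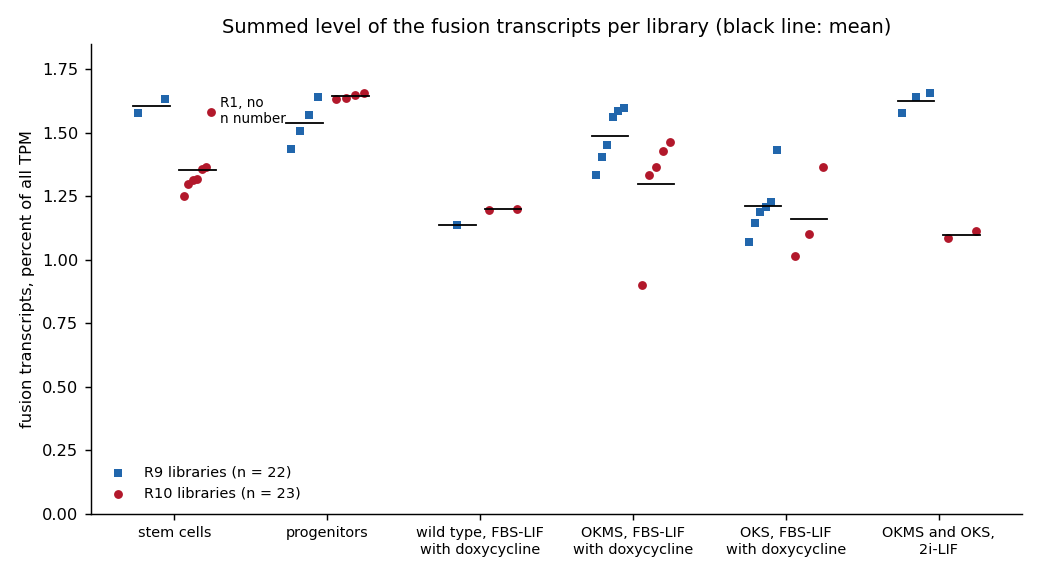
Summed level of all fusion transcripts as a percent of all TPM (y axis) in each of 45 libraries, by group and chemistry; black lines are means. R10 stem cells with an n number lie at 1.25% to 1.37%, R10 progenitors at 1.63% to 1.66%, and wild-type progenitors in FBS-LIF with doxycycline near 1.2%.

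The next test asked whether fusions changed more or less than the genes they join, with the log2 difference between a fusion and the summed other transcripts of its parents as the value. In R10, 147 of 334 fusions were called (44.0%, background 33.9%), 59 higher (17.7%, background 17.8%) and 88 lower (26.3%, background 16.1%) relative to their parents in stem cells. Of the 199 fusions with at least 100 bases of each parent, 30 were higher (15.1%) and 64 lower (32.2%), and of the 131 with under 100 bases of one parent, 27 were higher (20.6%) and 24 lower (18.3%). With a minimum of 5 TPM the share of fusions called was below that of all transcripts (35.9% of 128, background 40.4%). The R9 libraries gave 53 calls among 447 (11.9%, background 5.11%), 15 higher (3.36%, background 3.41%) and 38 lower (8.50%, background 1.7%). The median relative difference was -0.15 for fusions and 0.02 for all transcripts in R10, and -0.09 and 0.17 in R9. For a transcript that is no fusion the reference was the rest of its own gene, so the backgrounds describe a somewhat different quantity. Of the 85 fusions higher in R10 stem cells, 27 were also called higher relative to their parents, 36 were called lower relative to them and 22 were not called. In 24 of those 36 the fusion and all its parents were listed at 0 in every R10 progenitor library, so that the call rests on the fusion's level below its parents in stem cells and on the pseudocount of 1. Of the 61 that were lower, 26 were lower relative to their parents as well, 9 higher and 26 not called.

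For some fusions the direction differed between the level and the level relative to the parents. Gm31048-Sparcl1 fell in stem cells and was called higher relative to its parents (4.97, SE 0.35, adjusted p = 5.47e-08), with the other Sparcl1 transcripts at 245 to 515 TPM in R10 progenitors and at most 1.98 TPM in stem cells. On the log2(TPM + 1) scale a fusion of low level cannot fall as far as an abundant parent. Rnf122-Tti2 was at 0.388 to 1.78 TPM in stem cells and 0.494 to 1.09 TPM in progenitors, while the other transcripts of Rnf122, a RING finger gene, had 1.90 to 27.6 and 182 to 244 TPM (relative difference of the fusion 5.35, SE 0.47, adjusted p = 6.10e-07). For Rnf122-Tti2 the reference rested on Rnf122, which gives 57 bases of the fusion against 1073 of Tti2; the other Tti2 transcripts were listed at 0 in R10 progenitors and had at most 1.06 TPM in stem cells. For Gstm4-Gstm1-Gstm2 the fusion itself rose (relative difference 4.90, SE 0.26, adjusted p = 4.08e-09), and the parent sum was mostly Gstm1, the one of its 3 parents that was lower in R10 stem cells.

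The 3 largest negative relative values belonged to fusions that stayed low while a parent was far higher in stem cells. In R10 progenitors Zfp936-EU599041, Xlr-1700013H16Rik and all their parents were listed at 0, as was Zfp992 beside Gm13166-Zfp992 transcript B, so on this scale the values give the distance to the parents in stem cells and no ratio in progenitors. Zfp936-EU599041 had 0 to 3.41 TPM in R10 stem cells and was listed at 0 in progenitors, from 0 to 4 reads and 0 reads of the joined gene, while the other transcripts of the zinc finger gene Zfp936 had 113 to 159 TPM and were listed at 0 (relative difference -6.12, SE 0.33, adjusted p = 4.01e-09). Xlr-1700013H16Rik on the X chromosome had 0.313 to 1.67 TPM beside 21.9 to 180 TPM of 1700013H16Rik (-5.69, SE 0.40, adjusted p = 5.27e-08). Gm13166-Zfp992 transcript B had 0 to 3.46 TPM beside 44.7 to 168 TPM of Zfp992 (-5.34, SE 0.46, adjusted p = 4.32e-07). Mt2-Mt1 fell in both senses in R10: it had 532, 736 and 929 TPM (lowest, median, highest) in stem cells and 1332, 1433, 1700 and 1413 TPM in progenitors (log2 difference -1.09, SE 0.15, adjusted p = 4.96e-05), while the other Mt2 transcripts had 116 to 370 TPM in progenitors and 2570 to 4534 TPM in stem cells. Mt1, which gives most of its bases, had other transcripts at 382 to 551 TPM in progenitors and 522 to 934 TPM in stem cells. In R9 Mt2-Mt1 itself was not called (0.10, SE 0.21, adjusted p = 0.872), and its fall relative to the parents was (-3.26, SE 0.45, adjusted p = 0.0114).

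The time course had 1 R9 library per system and day, with OKMS and OKS as an additive term, so its F test takes the systems as replicates of a day. Of 710 fusions tested, 5 were called (0.704%, background 0.129%), 1 for a largest difference above day 0 (0.141%, background 0.0447%) and 4 below (0.563%, background 0.0844%). The count was 3 without day 2, day 4 or day 14, 2 without day 6, 1 without day 20, and 19 with no system term. No share of all transcripts stands beside these counts, so a change in the fusions alone cannot be read from them. Dgki-Ptn fell early: in OKMS it had 401 TPM at day 0 and then 98.0, 14.9, 24.6, 12.3, 8.98 and 0 TPM at days 2, 4, 6, 10, 14 and 20. In OKS it went from 673 TPM to 271, 55.1, 76.2, 51.3, 25.7 and 3.31 TPM (largest log2 difference -7.97 at day 20, adjusted p = 0.00724). In these R9 libraries OKS was above OKMS on all 7 days. In R10 the progenitors had the opposite order (573 TPM in OKMS and 419 TPM in OKS), and days 2, 6 and 18 had 78.1, 2.02 and 0 TPM in OKMS and 257, 111 and 5.03 TPM in OKS. The wild-type R10 libraries in FBS-LIF with doxycycline kept 354 and 382 TPM at day 2. In bulk samples, fewer cells of a type and less RNA per cell cannot be told apart.

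Acot2-Acot1 had 498, 312 and 0 TPM at days 0, 2 and 4 in OKMS and 715, 438 and 0 TPM in OKS, and was listed at 0 from day 4 on (largest log2 difference -9.22 at day 4, adjusted p = 0.0017). The joined gene did not drop to 0 with it: it held 116, 78, 55, 65, 58, 41 and 6 reads over the 7 days in OKMS and 122, 86, 93, 67, 26, 13 and 19 in OKS. In R10 the transcript was also listed at 0 at days 4 and 6 in OKMS and at day 6 in OKS, where the joined gene had 388, 342 and 947 reads. At day 2 in R10 it had 1785 TPM in OKMS and 2578 TPM in OKS. The step from day 2 to day 4 was thus seen in the transcript table and not in the reads of the joined gene.

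Mt2-Mt1 was called for its fall at day 20 (largest log2 difference -2.46, adjusted p = 0.0146). OKMS had 1652 TPM at day 0, 1447 at day 2, 675 at day 14 and 300 at day 20. OKS first had higher values, 1495 TPM at day 0 and 2034, 2356, 2155 and 2230 TPM at days 2, 4, 6 and 10, and then 994 and 271 TPM at days 14 and 20. The other Mt2 transcripts were above their day 0 level at every later day in both systems.

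Another 2 calls rested on day 2. Myh1-Myh8 (chr11:67220902-67308634, plus strand) joined an exon of Myh1 to Myh8, genes of adult and perinatal myosin heavy chains of skeletal muscle, over an intron of 84623 bases. It was listed at 0 in 38 of the 45 libraries, and the 7 others were all the libraries of day 2 in FBS-LIF with doxycycline: 30.0 TPM in OKMS, 22.9 in OKS and 60.3 in wild type in R9, and 51.5, 189, 1319 and 385 TPM in R10 OKMS, OKS and the pair of wild-type libraries. The F test gave 4.77 at day 2 (adjusted p = 0.0411). The joined gene held 10 and 6 reads in R9 OKMS and OKS at day 2, 1231 and 480 in the R10 wild-type pair, and 3 to 9 in the R10 progenitors, where the transcript was listed at 0. The parents share 20.8% of their words. Gm43038-Rfc3, with Rfc3, a subunit of the clamp loader of DNA replication, downstream, showed the opposite pattern. It was listed at 0 in the same 7 libraries, while the R9 progenitors of OKMS and OKS had 47.5 and 51.0 TPM and day 4 had 123 and 46.7 TPM (-5.65 at day 2, adjusted p = 0.0405). The other Rfc3 transcripts did not reach 0 at day 2, with 83.9 TPM in OKMS and 45.5 TPM in OKS. Reads of this fusion have no gene of their own in the gene table, so the 0 values have no read count beside them.

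The abundant Zdhhc5-Selenoh and Sephs2-Dctpp1 were not called in the time course, and both were lower in OKS than in OKMS from day 2 to day 10. Zdhhc5-Selenoh had 860, 1193, 1130 and 1183 TPM at days 2, 4, 6 and 10 in R9 OKMS and 248, 276, 392 and 301 TPM in R9 OKS. Sephs2-Dctpp1 had 463, 777, 667 and 608 TPM on those days in OKMS and 98.1, 125, 104 and 175 TPM in OKS. R10 gave 731 and 1009 TPM in OKMS and 227 and 268 TPM in OKS at days 2 and 6 for Zdhhc5-Selenoh, and 547 and 948 TPM against 101.2 and 115 TPM for Sephs2-Dctpp1. With 1 library per system and day, the difference between systems was not tested. Over the 45 libraries Zdhhc5-Selenoh followed the other transcripts of Selenoh (r = 0.966) more than those of Zdhhc5 (r = 0.121). Sephs2-Dctpp1 had r = 0.787 with Sephs2 and 0.769 with Dctpp1. A difference in the fusions alone therefore cannot be read from these values.

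**Figure D5:**
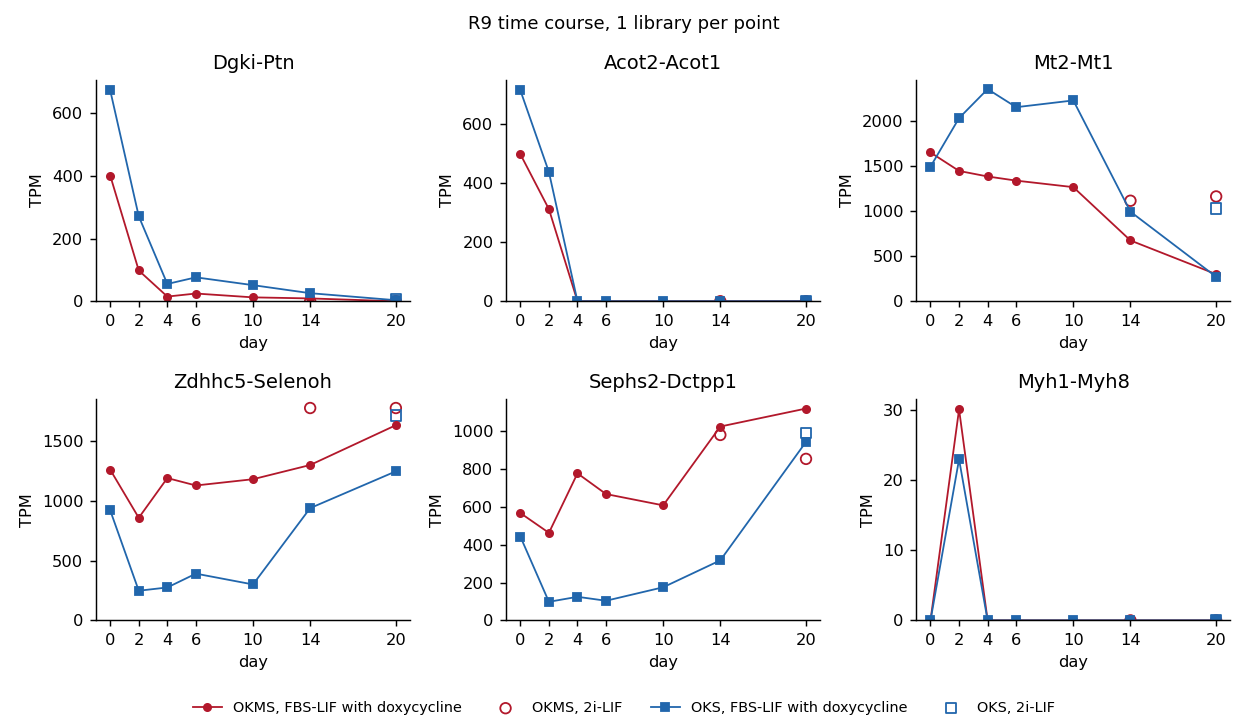
TPM (y axis) by day (x axis) in R9 libraries of OKMS (red circles) and OKS (blue squares), filled in FBS-LIF with doxycycline and open in 2i-LIF, 1 library per point. Dgki-Ptn and Acot2-Acot1 fall after day 0, Myh1-Myh8 is above 0 at day 2 alone, and Zdhhc5-Selenoh and Sephs2-Dctpp1 are lower in OKS than in OKMS from day 2 to day 10.

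The total of all fusions was lower than at day 0 on every later day of both systems. OKMS went from 1.64% of TPM to 1.33%, 1.45%, 1.40%, 1.58%, 1.60% and 1.56% at days 2, 4, 6, 10, 14 and 20, and OKS from 1.44% to 1.07%, 1.19%, 1.14%, 1.21%, 1.23% and 1.43%. OKS was lower than OKMS on each of the 7 days in these R9 libraries. In R10 OKS was lower at day 2 (1.37% against 1.46%) and day 6 (1.10% against 1.43%), and higher in the progenitors (1.66% against 1.63%) and at day 18 (1.01% against 0.900%). The difference between systems was not tested.

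Wild-type progenitors carry no factors, and their 2 days in FBS-LIF with doxycycline address medium and drug together. In R10 (2 against 2 libraries), 64 of 345 fusions were called by limma (18.6%, background 15.7%), 33 higher (9.57%, background 7.83%) and 31 lower (8.99%, background 7.84%). Under median centring the split was 9 against 17, and without either progenitor library limma called 0 (82 and 101 at an unadjusted p under 0.05). Zdhhc5-Selenoh fell from 1106 and 1180 TPM to 133 and 120 TPM (log2 difference -3.17, SE 0.16, adjusted p = 0.011). The other Selenoh transcripts had 427 and 418 TPM before and 63.4 and 43.2 TPM after. Sephs2-Dctpp1 fell from 595 and 740 TPM to 58.3 and 82.4 TPM (-3.24, SE 0.26, adjusted p = 0.0212), and Ppp1r18os-Tubb5 from 1068 and 1075 TPM to 326 and 331 TPM (-1.70, SE 0.14, adjusted p = 0.0228). Myh1-Myh8 and Gstm4-Gstm1-Gstm2 rose (adjusted p = 0.0177 and 0.045), the latter from 1.28 and 3.37 TPM to 20.0 and 41.9 TPM. The fusion total was 1.20% in both treated libraries and 1.64% and 1.65% in the untreated ones.

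Medium was compared late in reprogramming in 5 pairs matched for system, day and chemistry (R9 day 14 OKMS, day 20 OKMS and OKS, and R10 day 18 OKMS and OKS). With the pair as a block, 7 of 242 fusions were called (2.89%, background 1.84%), 5 higher in 2i-LIF (2.07%, background 1.15%) and 2 lower (0.826%, background 0.691%). Without the OKMS day 14 pair, or without the OKS day 20 pair, limma called 0 (34 and 28 at an unadjusted p under 0.05). Zfp990-Gm13228 had 11.6, 10.3, 17.2, 36.2 and 25.4 TPM in 2i-LIF, in the order of the pairs above, and 0, 0, 0, 5.88 and 0 TPM in FBS-LIF with doxycycline (log2 difference 3.70, SE 0.54, adjusted p = 0.00745). It was higher in all 5 pairs. The joined gene held 6, 13, 7, 9 and 11 reads in 2i-LIF and 2, 0, 5, 4 and 0 reads in FBS-LIF, so 2 of the 4 values listed at 0 stood beside reads.

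Ighv1-46-Ighv1-44, which joins 2 immunoglobulin variable pseudogenes, had 2.68, 9.54, 10.6, 6.69 and 5.86 TPM in 2i-LIF and was listed at 0 in the 5 FBS-LIF libraries (2.91, SE 0.52, adjusted p = 0.0199), from 1, 4, 4, 2 and 2 reads against 0 in each. Gm26298-Arih2, with the ubiquitin ligase gene Arih2 downstream, had 6.47, 12.9, 6.40, 3.03 and 5.30 TPM against 0.671, 0, 0.495, 0 and 0 TPM (2.59, SE 0.54, adjusted p = 0.0377), and another Gm26298-Arih2 transcript was also called. Mt2-Mt1 was called higher in 2i-LIF too, at 1116, 1164, 1032, 651 and 410 TPM against 675, 300, 271, 227 and 266 TPM (1.35, SE 0.22, adjusted p = 0.0114). Again all 5 pairs had the higher value in 2i-LIF. Gm26298, the upstream parent of Gm26298-Arih2, is annotated as a microRNA, and its other transcripts were listed at 0 in all 45 libraries.

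Ly6g6f-Ly6g6d, a join of 2 genes of the Ly6 cluster of surface proteins, was the opposite. It was listed at 0 in all 5 libraries in 2i-LIF and had 15.2, 10.8, 3.21, 2.65 and 7.31 TPM in FBS-LIF with doxycycline (-2.92, SE 0.55, adjusted p = 0.0246), from 0 reads in each and 9, 4, 3, 2 and 3 reads. It was listed at 0 in all stem cell and progenitor libraries and appeared between them, with 24.04 TPM at day 4 in OKMS and 27.6 TPM at day 10 in OKS in R9. Its other Ly6g6f transcripts were also listed at 0 in 2i-LIF. Entpd3-Rpl14 was called lower in 2i-LIF (-2.39, SE 0.45, adjusted p = 0.0246) on 2.97 to 4.99 TPM and 1 to 4 reads of its joined gene in FBS-LIF, and that joined gene had 0 to 5 reads in 2i-LIF.

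As a total, fusions were higher in 2i-LIF in 5 of 5 pairs, by 0.114 percentage points on average (SD 0.0513, n = 5 pairs). The exact sign-flip permutation test gave p = 0.0625, two-sided, the smallest that 5 pairs allow. With Mt2-Mt1 taken out of the sum, 4 of 5 pairs were higher, by 0.0601 on average (p = 0.125 by the same exact test). For fusions with at least 100 bases of each parent 3 of 5 pairs were higher, by 0.0139 (p = 0.438 by the same exact test). Both sums were chosen after the values were seen.

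Genes of 3′-end cleavage, polyadenylation and termination were described from a list of 33, which also holds poly(A)-binding proteins, among them the mainly cytoplasmic Pabpc1, and proteins of the U1 small nuclear RNP. In R10, 5 of 33 were called by limma on log2(CPM + 1) in stem cells against progenitors (15.2%, background 45.8%), all 5 higher (background 22.4% higher and 23.5% lower). They included Clp1, a subunit of cleavage factor II (59.7 ± 4.81 CPM, n = 7, against 22.7 ± 3.01 CPM, n = 4; SD; limma adjusted p = 1.91e-07), the poly(A) polymerase Papolg (21.1 ± 4.16 against 8.89 ± 2.44 CPM), the poly(A)-binding protein Pabpc1 (1727 ± 453 against 594 ± 98.7 CPM), and the helicase Dhx9 (347 ± 112 against 73.9 ± 10.4 CPM). In R9, 3 of 33 were called (9.09%, background 36.0%), all higher (background 17.6% higher and 18.4% lower): Clp1 (39.5 ± 13.8 CPM, n = 2, against 12.3 ± 4.76 CPM, n = 4; SD), Papolg (17.4 ± 1.78 against 4.99 ± 2.62 CPM) and the nuclear poly(A)-binding protein Pabpn1 (487 ± 0.584 against 228 ± 6.65 CPM). The median log2 difference of the list was 0.30 in R10, beside 0.01 for all genes, and 0.42 in R9, beside -0.07. The R9 count of 3 moved when 1 library was left out (last section).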

How the data were processed

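Members are all fusions of the transcript table; the members and gene lists were chosen with earlier results of these data known. The authors deposited transcript TPM and gene CPM tables, named after IsoQuant, and a classification in the layout of SQANTI3 with percent A after each end, per the file headers. The submitters' processing notes name minimap2 2.24-r1122 and mm10; the counting settings are not given in the sources used here. The transcript TPM table keeps no depth. The deposited CPM values were whole multiples of 1 read in 100% of cases (tolerance 0.02), giving whole reads per joined gene. The gene table held 13 columns of no sample here, which were not used. A parent's level is the summed TPM of its transcripts that are not fusions.

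Fits used limma 3.58.1 (eBayes with trend) over all features with 1 TPM or CPM in as many libraries as the smaller arm (time course 2, pairs 5) on log2(value + 1). Whole reads were tested with edgeR 4.0.16 (quasi-likelihood). Some of the fits were also tested on simulated data. Nothing says that libraries of a group came from separate cultures, so p-values measure the spread between these libraries, which may be technical.

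Named fusions were the 8 of highest mean TPM, the 6 largest rises and 6 largest falls called in R10 stem cells with arms apart and the same sign in R9, and the 3 largest each way in the time course, the late pairs and relative to the parents in R10, 1 per joined gene. Exon bases, splice sites and join sequences were read from GENCODE M21. Exon bases annotated in both parents were counted for neither. Alternatives were pseudocount, filter, scaling, leaving out libraries, pairs or days, block terms, reference parent and fusion subsets. Some members of the counts given are not reported here by name.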

Additional observations from a re-analysis of the deposited data

Results flagged for a closer look

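Of 67 groups of 4 to 10 libraries examined, 9 had a library far from the others by Dixon's ratio, where chance gives about 1 in 20. In 6 of the 9 it was the R10 R1 stem cell library without an n number. Its fusion total was 1.58% of TPM, against 1.25% to 1.37% in the other 6 stem cell libraries. It had the highest Zdhhc5-Selenoh (1409 TPM, others 1243 to 1304), Slc29a1-Hsp90ab1 (880 TPM, others 571 to 690), Gm9176-Rpl41 (1102 TPM, others 451 to 558), 9130208D14Rik-Mrpl17 (1082 TPM, others 559 to 782) and Dgki-Ptn (3.49 TPM, others 0 to 0.57). Ppp1r18os-Tubb5 was highest in the OKS R10 progenitors (1138 TPM, others 1063 to 1075). Among R10 progenitors, Entpd3-Rpl14 was above 0 in 1 wild-type library alone (1.04 TPM), and Gm13166-Zfp992 transcript B in the OKMS R9 progenitors alone among R9 progenitors (3.22 TPM). No cause was tested for any of these.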

How the results depend on the processing

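TPM keeps no depth, so how many reads a low transcript rests on is known only through its joined gene, and values of 1 to 5 TPM in the late pairs rested on few reads. The count of fusions called in stem cells was 146 in R10; it was 49 with a minimum of 5 TPM, which tests fewer transcripts (38.3% of 128, all transcripts 53.8%), 90 with the R1 library without an n number alone, and 132 to 148 without 1 library. In R9 it was 89, with 41 at a minimum of 5 TPM (23.4% of 175, all transcripts 17.4%). Under median centring it was 35 of 447, where 5.27% of all transcripts were called. Without 1 library the R9 count was 82 to 154. It was 154 without the O4G and 152 without the R1 stem cell library, where the lone library is assumed to vary like the others. By edgeR on the whole reads of joined genes, chosen after seeing the data, 117 of 256 were called in R10 (45.7%, all genes 49.3%) and 61 of 297 in R9 (20.5%, all genes 36.5%). Scaling moved the median log2 difference of all transcripts in R10 from 0.17 to 0.01 (quantile) or 0.05 (median centring).

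Relative to the parents, the R10 count of 147 (of 334 tested, all transcripts 33.9%) was 582 with no filter (of 1345, 34.9%), 46 at 5 TPM (of 128, or 35.9%, against 40.4%), 86 with that R1 library alone (of 573, 6.64%) and 131 to 165 without 1 library; the R9 count of 53 (of 447, 5.11%) was 135 with no filter (of 961, 7.28%), 17 at 5 TPM (of 175, 5.32%) and 35 to 76 without 1 library. In these counts relative to the parents, the percentages are shares of all transcripts, apart from 35.9%, which is the share of the fusions. The fusion total in R10 differed by -0.0623 with the R1 library without an n number as the only stem cell library. In R9 the difference turned from 0.0675 to -0.0680 for fusions with at least 100 bases of each parent, a sum chosen after seeing the data. The time course count of 5 was 19 with no system term, 3 without day 2, day 4 or day 14, 2 without day 6 and 1 without day 20. Gm43038-Rfc3 turned to 0.63 without day 2, no longer called. The late pairs' count of 7 was 1 with no filter, 2 at 5 TPM, 0 with R9 pairs only (43 at an unadjusted p under 0.05 by limma), 0 to 2 in leave-one-out and 7 with no replicate block. For wild-type medium the count of 64 was 11 with no filter, 26 under median centring and 0 to 85 without 1 library (82 and 101 at an unadjusted p under 0.05 by limma in the 2 cases of 0, without wild-type progenitor replicate 2 or 3). The wild-type libraries share only replicate numbers (correlation of deviations 0.19, 2 pairs); with that replicate block 100 were called, 58 higher and 42 lower. The R9 count of 3 genes of 3′-end processing was 1 to 5 without 1 library (1 without either stem cell library, 5 without the OKMS progenitors). For counts given without the share of all transcripts, here and above, a change in the fusions cannot be told from a change in all transcripts. Where no cause is given by the setting itself, the cause was not tested. For the named fusions, 990 of the alternative values kept their direction and side of the threshold, 135 kept the direction and lost the call, and 1 reversed.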
